A study of Homo sapiens with 10 samples.

Results

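Transcript levels of 48 genes that write, read, erase or remodel chromatin were compared across 5 untreated prostate cancer cell lines. The members were the rows of the deposited expression table that carry the 48 listed gene symbols, out of 60642 symbols in the table, and each symbol matched 1 row. They were arranged in 7 classes: 7 Polycomb genes, 8 SWI/SNF and ISWI remodeler genes, 9 histone methyltransferases, 7 histone demethylases, 6 genes of DNA methylation, 6 histone deacetylases, and 5 genes for BET proteins, acetyltransferases and the remodeler CHD1. Each of the lines, which were LNCaP, VCAP, DUCAP, PC3 and DU145, was sampled as 2 biological repeats, so 10 samples in all. LNCaP was established from a lymph node metastasis, DU145 from a brain metastasis and PC3 from a bone metastasis, and DUCAP and VCAP came from separate metastases of the same patient. All cells were harvested while growing exponentially in phenol red-free RPMI medium with fetal bovine serum, and the labels give all of them as untreated. Each group is 1 established line, so the groups differ in genotype and origin at the same time. No sample of non-malignant prostate is part of the comparison.

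DNA in the nucleus is wrapped around histones, and chemical marks on the histone tails and on cytosine help to set whether a gene is read. Polycomb complexes place and bind repressive histone marks, while the KMT2 methyltransferases and the acetyltransferases EP300 and CREBBP act at active promoters and enhancers. SWI/SNF complexes use ATP to move or eject nucleosomes, demethylases and deacetylases remove marks, and BET proteins bind acetylated histones. Many of these genes are mutated or altered in level in prostate cancer, and several of the enzymes are drug targets.

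Expression was measured by strand-specific RNA-seq of polyA-enriched RNA and is given in TPM, a transcript abundance that scales each sample to a fixed total and corrects for transcript length. TPM sums over the table lay between 982880 and 991998, and TPM keep no sequencing depth. The mitochondrial genes took 12.7% to 36.0% of the total, most in DUCAP and VCAP, so the share left for nuclear genes differed between lines. The epithelial marker EPCAM was detected in all samples (23.4 to 264 TPM), and the leukocyte markers PTPRC and CD3E did not exceed 0.12 TPM. Of the prostate genes, KLK3 reached at most 0.77 TPM in DU145 and PC3, while HOXB13 was at 328 and 502 TPM and TMPRSS2 at 18.9 and 22.7 TPM in PC3 and both at or below 0.19 TPM in DU145. ERG exceeded 0.19 TPM only in DUCAP and VCAP (122 to 199 TPM).

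The 48 genes were expressed in most samples. Of the 48, 44 were at or above 1 TPM in all 10 samples and 25 at or above 10 TPM in all 10. Mean levels ran from 0.908 TPM for TET1 to 231 TPM for BRD2, with a median of 22.1 TPM, and together the members held 1460 to 1841 TPM per sample. All 48 passed the filter of at least 1 TPM in at least 2 samples, as did 17520 genes in all. These were compared with limma on log2(TPM + 1), a scale that understates the differences of low genes, with Benjamini-Hochberg adjustment over all 17520. Error in every test comes from the 2 repeats within each line, and the p-values therefore refer to these cultures alone.

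**Figure D1:**
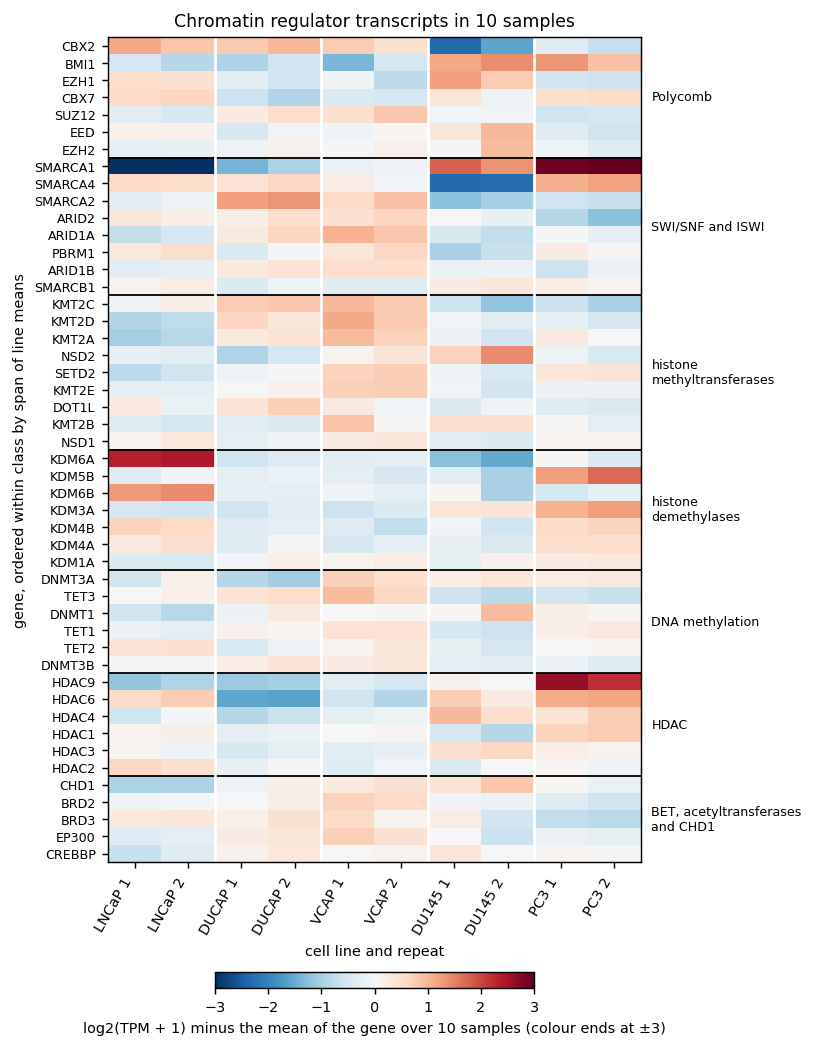
Each row is 1 of the 48 genes, ordered within its class by the span of line means, and each column is 1 sample. Colour gives log2(TPM + 1) minus the mean of that gene over the 10 samples; the deepest colours are those of SMARCA1, KDM6A, SMARCA4, CBX2 and HDAC9.

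Nearly every member differed among the lines, as nearly every expressed gene did. The limma F test over the 5 lines passed at an adjusted p under 0.05 for 47 of the 48 members, against 90.8% of all tested genes. A span of at least 1 on the log2 scale between the highest and the lowest line mean, which is 2-fold, was present with it in 33 of 48 members, against 80.8% of all genes. A 4-fold span was present in 9 of 48 members, against 38.5% of all genes. The median span of the members was 1.38, against 1.69 for all tested genes, whose middle 50% lay between 1.17 and 2.55. These values are for the TPM as deposited and for the filter above. Without a filter on low values 32 of the 33 kept a 2-fold span and no other member gained it. Of the 32724 genes then tested, 42.7% had such a span, so the members' lower share depended on the filter. Under median-ratio scaling and quantile normalization 31 of the 33 kept a 2-fold span. EZH2, ARID1B, KMT2B, NSD1, DOT1L, KDM1A, DNMT3B, TET1, TET2, CREBBP and EP300 gained it, against 76.1% and 76% of all genes. Without mitochondrial genes in the scaling all 33 kept it and ARID1B, KMT2B, DOT1L, TET1, CREBBP and EP300 gained it, against 79.8%. Under median-ratio scaling and quantile normalization the members' share exceeded that of all genes, and without mitochondrial genes in the scaling it lay near that share. The 9 wide members were SMARCA1, KDM6A, HDAC9, SMARCA4, CBX2, HDAC6, SMARCA2, BMI1 and KDM5B, and they fell into 4 of the 7 classes.

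**Figure D2:**
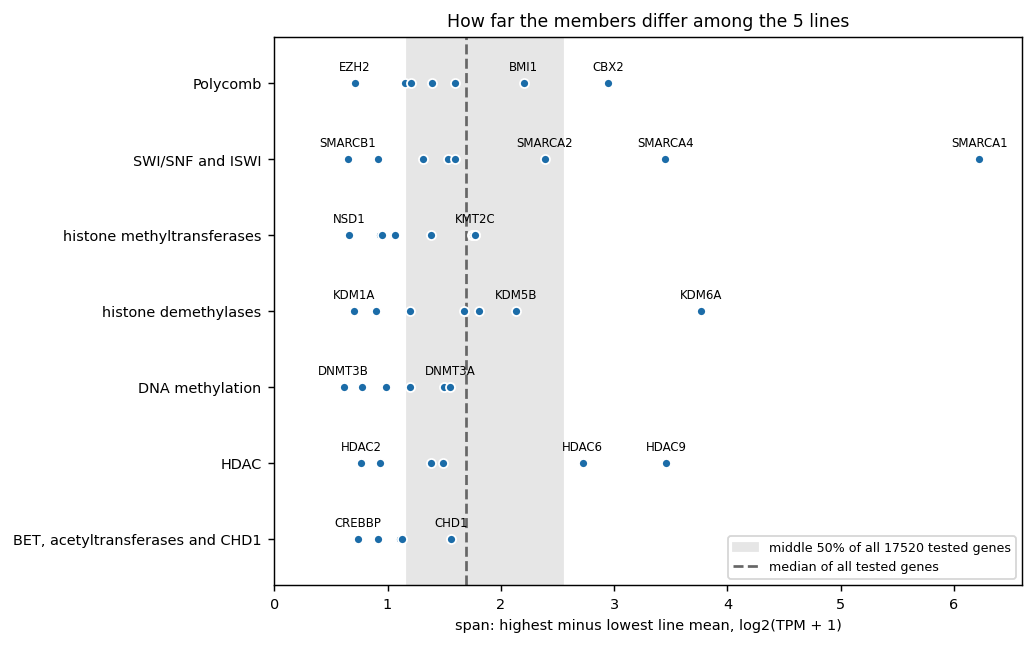
Each point is 1 member, placed by the difference between its highest and lowest line mean of log2(TPM + 1). The grey band and the dashed line give the middle 50% and the median of all 17520 tested genes; SMARCA1, at 6.22, lies far to the right of the other members.

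Across the order of lines within each gene, neighbouring lines often could not be separated. Of the 192 pairs of neighbours, 54 differed at an adjusted p under 0.05 and 74 had overlapping repeats. SMARCA1 was the only member in which all 4 steps of the order passed the test. Such steps were not counted over all tested genes, so these counts do not set the members apart from other genes.

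**Figure D3:**
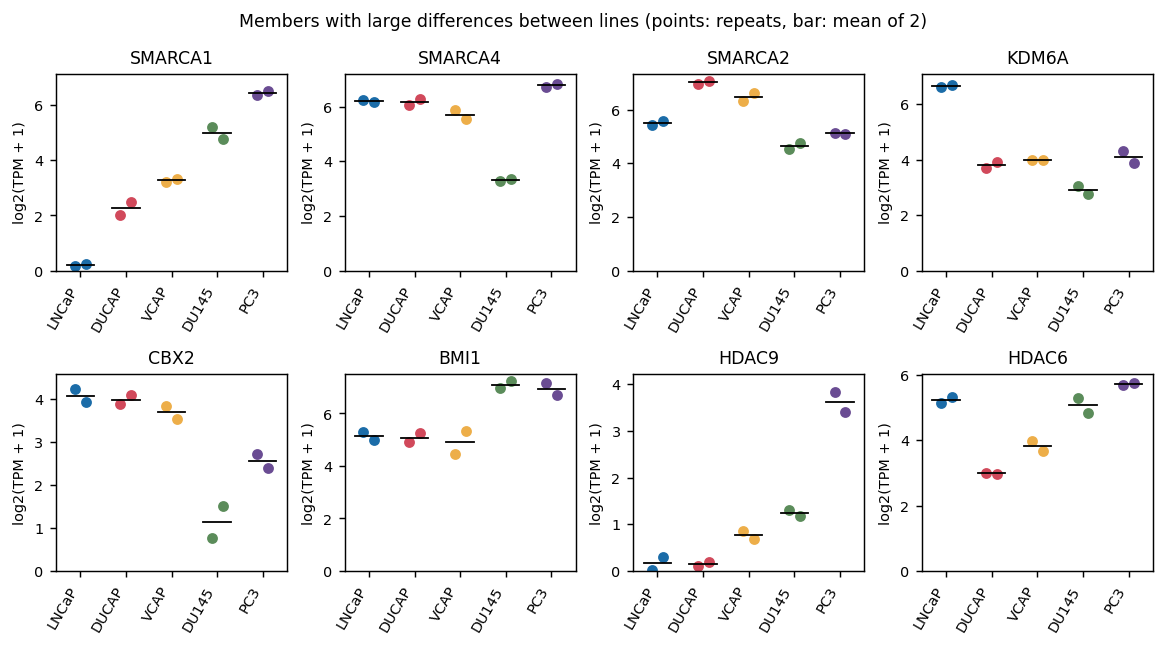
Levels of 8 members with wide spans, in log2(TPM + 1) on the vertical axis, for the 5 lines. Points are the repeats and bars the mean of 2; for SMARCA1 the repeats of no 2 lines overlap, and for KDM6A both LNCaP repeats lie above all other samples.

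Polycomb genes encode the PRC2 complex, with EZH1 or EZH2 as its methyltransferase and SUZ12 and EED as core subunits, and parts of PRC1, with CBX2 and CBX7 as readers of the PRC2 mark and BMI1 as a RING partner. The PRC1 genes CBX2 and BMI1 differed most, and in DU145 in opposite directions. CBX2 was at 0.70 and 1.84 TPM in the DU145 repeats and at 5.64 and 4.27 TPM in PC3, whereas it was at 17.8 and 14.2 in LNCaP, 13.8 and 16.1 in DUCAP and 13.4 and 10.7 in VCAP. DU145 lay below every other sample, PC3 lay between, LNCaP and DUCAP overlapped, and VCAP lay just below them. In a bulk sample, fewer cells with a transcript and fewer transcripts per cell cannot be told apart. DU145 minus the mean of the other 4 lines was -2.45 (SE 0.21, adjusted p = 2.23e-05), and the step from PC3 down to DU145 was 1.43 (95% interval 0.81 to 2.04, adjusted p = 0.00264). BMI1 was at 125 and 148 TPM in DU145 and 141 and 103 TPM in PC3, against 38.4 and 30.4 in LNCaP, 28.8 and 37.1 in DUCAP and 21.0 and 39.2 in VCAP. All 4 samples of DU145 and PC3 lay above the 6 others, and the step from PC3 to LNCaP, next in order, was 1.79 (95% interval 1.10 to 2.47, adjusted p = 9.99e-04). DU145 and PC3 overlapped each other, as did LNCaP, DUCAP and VCAP.

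The other reader, CBX7 (span 1.39), lay between 2.68 TPM in DUCAP and 9.86 TPM in LNCaP. The log2 ratio of CBX2 to CBX7 within a sample, which does not depend on scaling between samples except through the pseudocount, was 1.97 ± 0.35 in DUCAP and 1.39 ± 0.16 in VCAP (mean ± SD, n = 2). It was 0.67 ± 0.26 in LNCaP, -0.75 ± 0.28 in PC3 and -1.76 ± 0.90 in DU145. CBX2 thus exceeded CBX7 in the 6 samples of LNCaP, DUCAP and VCAP and was below it in the 4 of DU145 and PC3.

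In PRC2, EZH2 was the member that did not pass the F test (span 0.71, adjusted p = 0.187). EZH2 was at 16.8 and 17.6 TPM in LNCaP, 19.9 and 22.96 in VCAP, 18.5 and 22.5 in DUCAP, 18.4 and 15.8 in PC3 and 20.1 and 40.7 in DU145. All samples but DU145 repeat 2 lay between 15.8 and 22.96 TPM, and the DU145 repeats lay 0.98 apart on the log2 scale. The call depended on scaling and on that line: the adjusted p was 0.0481 with mitochondrial genes left out of the scaling, 0.0171 under median-ratio scaling, 0.0123 under quantile normalization and 0.00287 without DU145 repeat 1. DU145 minus PC3, the ends of the order, was 0.71 (95% interval 0.05 to 1.37, adjusted p = 0.0711). EZH1, the alternative catalytic subunit, was highest in DU145, at 20.1 and 14.2 TPM, then LNCaP, at 11.97 and 11.3, and lower in DUCAP (6.21 and 5.05), VCAP (7.37 and 4.25) and PC3 (5.01 and 4.82). The DU145 and LNCaP repeats lay above all 6 samples of the other lines, and LNCaP minus VCAP, the next in order, was 0.93 (95% interval 0.35 to 1.51, adjusted p = 0.0118). EZH2 exceeded EZH1 in 9 of 10 samples; in DU145 repeat 1 the log2 ratio was -0.0020. SUZ12 (span 1.21) was highest in VCAP, at 46.6 and 58.8 TPM, overlapping DUCAP, and lowest in PC3, at 21.3 and 22.8, and EED (span 1.15) ranged from 7.27 TPM in PC3 to 23.96 TPM in DU145. The pseudogene row of SUZ12 held 7.0 to 26.4 TPM, and reads shared between the copies would make the SUZ12 levels uncertain.

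Among 26 further Polycomb genes, 24 passed the F test and 20 of them spanned 2-fold, against 90.8% and 80.8% of all tested genes. The widest was PHF19, an accessory subunit that helps bring PRC2 to chromatin. PHF19 was at 3.46 and 4.53 TPM in LNCaP, 33.4 and 33.5 in VCAP, 29.5 and 35.1 in DUCAP, 84.7 and 82.1 in PC3 and 87.3 and 188 in DU145. Both LNCaP repeats were below all others, with LNCaP minus the other lines at -3.58 (adjusted p = 7.08e-06).

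SWI/SNF complexes contain SMARCA4 (BRG1) or SMARCA2 (BRM) as their ATPase, SMARCB1 as a core subunit and ARID1A, ARID1B, or ARID2 with PBRM1, as subunits that mark the BAF and PBAF forms. SMARCA1 (SNF2L) is an ATPase of the separate ISWI family, which spaces nucleosomes. Each line had its own mix of these ATPases. SMARCA1 was close to 0 in LNCaP, at 0.12 and 0.17 TPM, and higher in turn in DUCAP (3.06 and 4.57), VCAP (8.25 and 8.97), DU145 (35.3 and 26.3) and PC3 (80.3 and 88.8). No repeats of neighbouring lines overlapped. The steps were 1.44 (95% interval 0.97 to 1.91, adjusted p = 5.84e-04) from PC3 down to DU145, 1.71 (95% interval 1.24 to 2.18, adjusted p = 1.20e-04) to VCAP, 1.01 (95% interval 0.55 to 1.48, adjusted p = 0.0112) to DUCAP and 2.06 (95% interval 1.59 to 2.52, adjusted p = 5.57e-05) to LNCaP. The span of 6.22 was the largest of the 48.

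SMARCA1 and the demethylase KDM6A had the 2 widest spans, and both lie on the X chromosome, as does HDAC6. In GRCh38.p14, SMARCA1 occupies chrX:129446506-129523490 and KDM6A chrX:44873188-45112779. The 250 bases before the start of each are shown from RefSeq as the sequence behind the most variable transcripts, chrX:129523491-129523740 on the minus strand for SMARCA1 and chrX:44872938-44873187 on the plus strand for KDM6A, 5′ to 3′ in the direction of transcription. Capitals mark the CpG dinucleotides, the sites that DNA methylation acts on.
SMARCA1: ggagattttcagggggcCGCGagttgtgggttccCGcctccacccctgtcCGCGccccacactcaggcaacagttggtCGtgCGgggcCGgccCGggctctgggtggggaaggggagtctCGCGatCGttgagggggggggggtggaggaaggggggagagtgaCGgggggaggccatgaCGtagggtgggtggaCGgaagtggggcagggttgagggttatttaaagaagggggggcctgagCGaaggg
KDM6A: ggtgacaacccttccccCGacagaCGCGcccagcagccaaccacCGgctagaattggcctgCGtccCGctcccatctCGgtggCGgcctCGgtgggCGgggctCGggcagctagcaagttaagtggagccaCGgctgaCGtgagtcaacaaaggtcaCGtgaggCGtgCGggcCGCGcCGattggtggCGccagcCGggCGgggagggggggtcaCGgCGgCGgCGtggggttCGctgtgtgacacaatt
The SMARCA1 window held 16 CpG (GC content 68.0%), and 41.0% of the 35116 promoter windows in the table held as many or more. The KDM6A window held 27 CpG (GC content 69.2%), a number reached by 17.7% of windows, and the median window held 11. The 82 windows of the members had a median of 23. Windows were available for 45 of the 48 members. These data hold no methylation or binding measurement, so the counts describe the sequence alone.

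SMARCA4 was set apart by 1 low line. DU145 had 8.82 and 9.21 TPM, whereas VCAP had 57.3 and 46.04, LNCaP 74.7 and 71.1, DUCAP 66.3 and 75.8 and PC3 103 and 114. DU145 lay far below every other sample, PC3 lay above every other sample, and LNCaP and DUCAP overlapped. DU145 minus the other 4 lines was -2.89 (SE 0.11, adjusted p = 3.57e-07), and VCAP minus DU145 was 2.39 (95% interval 2.05 to 2.72, adjusted p = 2.71e-06). SMARCA2 was highest in DUCAP (124 and 134 TPM) and VCAP (79.3 and 97.2), followed by LNCaP (41.5 and 47.1), PC3 (34.4 and 32.9) and DU145 (21.9 and 25.8). The 5 lines did not overlap in SMARCA2, and the steps that passed the test were those from DUCAP to VCAP, from VCAP to LNCaP and from PC3 to DU145. DU145 was therefore lowest in both SWI/SNF ATPases, with SMARCA2 at -1.40 (SE 0.12, adjusted p = 1.96e-05) against the other lines.

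The log2 ratio of SMARCA4 to SMARCA2 split the lines. It was 1.66 ± 0.14 in PC3 and 0.71 ± 0.18 in LNCaP, and -0.76 ± 0.42 in VCAP, -0.85 ± 0.06 in DUCAP and -1.31 ± 0.12 in DU145 (mean ± SD, n = 2). SMARCA4 exceeded SMARCA2 in the 4 samples of LNCaP and PC3 and was below it in the 6 others. In DU145 the ISWI gene SMARCA1 exceeded SMARCA4, with a log2 ratio of 1.65 ± 0.33, and in the 8 samples of the other lines it did not.

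The remaining subunits differed less. SMARCB1, with the smallest span of the class (0.65), was between 49.0 and 82.7 TPM in all samples, at 77.8 and 82.7 TPM in DU145, 75.8 and 69.9 in PC3, 69.95 and 76.4 in LNCaP, 49.02 and 59.1 in DUCAP and 50.7 and 50.8 in VCAP. Its F test no longer passed with mitochondrial genes left out of the scaling (adjusted p = 0.0942) or under median-ratio scaling (adjusted p = 0.0521). ARID1A reached 114 and 96.8 TPM in VCAP and was lowest in LNCaP and DU145, with VCAP at 1.15 (SE 0.14, adjusted p = 1.87e-04) against the other lines. ARID2 was lowest in PC3, at 6.49 and 4.81 TPM, which was -1.31 (SE 0.15, adjusted p = 9.07e-05) against the other lines, and PBRM1 was lowest in DU145, at 14.1 and 17.4. ARID1B had a span of 0.92, from 14.9 TPM in PC3 to 34.3 TPM in VCAP. Of 25 further remodeler genes, 24 passed the F test and 19 spanned 2-fold, against 90.8% and 80.8% of all tested genes. The widest, DPF3, a subunit with histone-reading fingers, was at 40.9 and 32.5 TPM in PC3 and no higher than 0.55 TPM elsewhere, a difference of 4.92 (adjusted p = 5.48e-08) for PC3.

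The class of histone methyltransferases included the KMT2 family, most of whose members methylate histone H3 at promoters and enhancers. It also held NSD1, NSD2 and SETD2, which act on gene bodies, and DOT1L, which acts within the histone core. Several KMT2 genes were highest in VCAP and DUCAP. KMT2D was at 46.8 and 36.4 TPM in VCAP and 32.99 and 26.6 in DUCAP, against 19.6 and 16.1 in DU145, 16.9 and 14.4 in PC3 and 10.9 and 11.9 in LNCaP. KMT2C was at 24.4 and 21.3 TPM in VCAP and 20.9 and 21.9 in DUCAP, against 10.6 and 13.8 in LNCaP, 7.37 and 4.80 in DU145 and 7.19 and 5.56 in PC3. For both genes the VCAP and DUCAP samples lay above the 6 others; the lowest line was LNCaP for KMT2D and PC3 or DU145, which overlapped, for KMT2C. The step below DUCAP was 0.70 (95% interval 0.28 to 1.13, adjusted p = 0.00959) for KMT2D and 0.77 (95% interval 0.27 to 1.28, adjusted p = 0.0153) for KMT2C. KMT2C is known to have partial copies elsewhere in the genome, and their part in its level was not tested.

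KMT2A was at 29.3 and 24.3 TPM in VCAP, 18.2 and 19.7 in DUCAP, 17.8 and 14.6 in PC3, 12.9 and 9.52 in DU145 and 6.75 and 7.74 in LNCaP. VCAP lay above and LNCaP below all other samples, with LNCaP at -1.16 (SE 0.15, adjusted p = 2.35e-04) against the other lines. SETD2 had the same ends, 30.9 and 32.6 TPM in VCAP and 10.8 and 12.3 in LNCaP, and KMT2E was highest in VCAP, at 44.5 and 45.9. NSD2, which makes the dimethyl mark of active gene bodies, was instead highest in DU145, at 85.2 and 141 TPM, followed by VCAP at 56.1 and 68.9; the other 6 samples lay between 27.8 and 46.96 TPM. DU145 was at 1.32 (SE 0.20, adjusted p = 5.80e-04) against the other lines, with repeats 0.72 apart, and without DU145 repeat 2 the difference was 0.96. Its relative NSD1 varied least of the class (span 0.66): NSD1 was at 22.7 and 26.4 TPM in LNCaP, 25.6 and 26.6 in VCAP, 16.8 and 19.2 in DUCAP, 16.8 and 15.5 in DU145 and 21.9 and 21.9 in PC3. DOT1L (span 0.95) and KMT2B (span 0.93) lay between 7.51 and 21.1 TPM. Of 25 further methyltransferase genes, 21 passed the F test and 16 spanned 2-fold, against 90.8% and 80.8% of all tested genes. The widest was CARM1, an arginine methyltransferase and coactivator, with VCAP at -1.74 (adjusted p = 3.59e-05) and PC3 at 1.61 (adjusted p = 3.57e-05) against the other lines.

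The histone demethylases held 2 genes that set LNCaP apart, KDM6A (UTX) and KDM6B (JMJD3), which both remove the PRC2 mark. KDM6A was at 98.1 and 103 TPM in LNCaP, against 19.1 and 13.9 in PC3, 14.8 and 14.97 in VCAP, 11.9 and 14.04 in DUCAP and 7.21 and 5.75 in DU145. LNCaP lay far above every other sample and DU145 below every other sample, while PC3 overlapped both DUCAP and VCAP. LNCaP minus the other 4 lines was 2.97 (SE 0.14, adjusted p = 1.34e-06), the step from LNCaP to PC3 was 2.55 (95% interval 2.13 to 2.98, adjusted p = 7.14e-06), and the step from DUCAP to DU145 was 0.91 (95% interval 0.48 to 1.33, adjusted p = 0.00247). KDM6B was at 23.5 and 25.9 TPM in LNCaP, 8.31 and 7.26 in VCAP, 7.55 and 7.25 in DUCAP, 6.0 and 7.33 in PC3 and 9.42 and 4.19 in DU145. LNCaP again lay above all others, at 1.68 (SE 0.23, adjusted p = 3.41e-04), and the remaining 4 lines overlapped. The log2 ratio of KDM6A to KDM6B was 1.98 ± 0.04 in LNCaP and 0.02 ± 0.51 in DU145.

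PC3 stood apart in a pair of other demethylases. KDM5B, which acts on the active promoter mark, was at 88.96 and 121 TPM in PC3, against 28.4 and 33.9 in LNCaP, 30.2 and 25.6 in VCAP, 30.2 and 32.2 in DUCAP and 28.7 and 18.1 in DU145. PC3 lay above all others and the other 4 lines overlapped in part, with PC3 at 1.85 (SE 0.19, adjusted p = 4.67e-05). KDM3A, which acts on a repressive mark, was highest in PC3 (29.2 and 34.1 TPM) and then DU145 (17.98 and 18.2), while the 6 other samples lay between 8.55 and 10.7 TPM. Both steps passed, 0.77 (95% interval 0.40 to 1.14, adjusted p = 0.00458) from PC3 to DU145 and 0.84 (95% interval 0.47 to 1.21, adjusted p = 0.00174) from DU145 to DUCAP.

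The related enzymes KDM4A (span 0.90) and KDM4B (span 1.20) were both higher in PC3 and LNCaP than in the other 3 lines. KDM4A was at 30.5 and 30.5 TPM in PC3 and 25.4 and 29.3 in LNCaP and no higher than 20.02 elsewhere, and KDM4B at 20.2 and 19.1 in LNCaP and 18.4 and 19.9 in PC3 and no higher than 11.5 elsewhere. The steps across that gap were 0.58 (95% interval 0.20 to 0.96, adjusted p = 0.0144) for KDM4A and 0.94 (95% interval 0.48 to 1.41, adjusted p = 0.0051) for KDM4B. KDM1A (LSD1), a subunit of corepressor complexes, varied least of the class (span 0.71), with 50.4 and 48.1 TPM in LNCaP, 72.3 and 77.96 in VCAP, 63.5 and 76.5 in DUCAP, 54.7 and 73.3 in DU145 and 78.8 and 83.2 in PC3. Of 16 further demethylase genes, 15 passed the F test and 9 spanned 2-fold, against 90.8% and 80.8% of all tested genes. The widest was KDM1B, a relative of KDM1A, with LNCaP at 1.40 (adjusted p = 1.95e-04) and VCAP at -1.45 (adjusted p = 1.73e-04) against the other lines.

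The genes of DNA methylation, the methyltransferases DNMT1, DNMT3A and DNMT3B and the TET enzymes that oxidize methylcytosine, had a median span of 1.09, the lowest of the 7 classes, with the BET class next at 1.11. On log2(TPM + 1) no TET or DNMT gene reached a 4-fold span; TET1, near 1 TPM, spanned 2.16 with a pseudocount of 0.1. DNMT3A, a de novo methyltransferase, was at 4.04 and 3.46 TPM in DUCAP and 13.98 and 11.9 in VCAP, with 5.23 and 9.08 in LNCaP, 9.53 and 10.8 in DU145 and 9.66 and 10.2 in PC3. DUCAP was below and VCAP above all other samples. DUCAP against the other lines was -1.18 (SE 0.18, adjusted p = 6.10e-04), and this shrank to -0.64 under median-ratio scaling and to -0.49 under quantile normalization (adjusted p = 0.0544). DNMT3B was low throughout, at 2.93 and 2.73 TPM in LNCaP, 3.57 and 3.90 in VCAP, 3.49 and 4.01 in DUCAP, 2.19 and 2.02 in DU145 and 2.39 and 1.92 in PC3. In DUCAP DNMT3B and DNMT3A were near each other, with a log2 ratio of 0.00 ± 0.24, while in the other lines DNMT3A was higher.

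DNMT1, which copies methylation at replication, was at 51.3 and 42.6 TPM in LNCaP, 77.8 and 79.5 in VCAP, 68.3 and 95.2 in DUCAP, 88.4 and 79.2 in PC3 and 79.5 and 149 in DU145. LNCaP lay below all other samples, and DU145 repeat 2 above them. The F test (adjusted p = 0.0311) did not pass without a filter on low genes (adjusted p = 0.0750) or in 6 of the 10 fits that left out 1 sample, those without either repeat of LNCaP, VCAP or PC3 (adjusted p = 0.0588 to 0.202). TET3 was at 10.7 and 8.32 TPM in VCAP, 6.96 and 7.63 in DUCAP, 4.96 and 5.64 in LNCaP, 3.14 and 2.76 in PC3 and 2.90 and 2.49 in DU145, and TET1 at 1.52 and 1.49, 1.03 and 0.94, 0.64 and 0.53, 1.12 and 1.28 and 0.33 and 0.20 in the same order of lines. VCAP was highest in both, and DU145 was lowest in TET1. TET2 ranged from 2.56 TPM in DU145 to 5.92 TPM in LNCaP. Of 13 further genes, 12 could be tested. All 12 passed the F test and 10 spanned 2-fold, against 90.8% and 80.8% of all tested genes. The widest was UHRF1, which recruits DNMT1 to newly copied DNA, at 27.1 and 88.2 TPM in DU145 and 36.5 and 29.6 in PC3, against 9.37 to 15.1 TPM in the other lines.

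The histone deacetylases fall into class I (HDAC1, HDAC2 and HDAC3), the catalytic cores of corepressor complexes, class IIa (HDAC4 and HDAC9), and HDAC6, a mainly cytoplasmic enzyme that deacetylates tubulin. The class I genes were abundant everywhere, and the widest spans were those of HDAC9 and HDAC6. HDAC4 (span 1.49) and the class I gene HDAC1 (span 1.38) also spanned 2-fold. HDAC9 was at 13.3 and 9.52 TPM in PC3, 1.48 and 1.27 in DU145, 0.80 and 0.61 in VCAP, 0.08 and 0.15 in DUCAP and 0.02 and 0.23 in LNCaP. PC3 lay far above all other samples, and the LNCaP and DUCAP repeats overlapped close to 0. PC3 against the other lines was 3.03 (SE 0.14, adjusted p = 5.98e-07), which was 4.59 with a pseudocount of 0.1. HDAC6 was at 50.4 and 52.5 TPM in PC3, 34.2 and 38.8 in LNCaP, 38.4 and 27.5 in DU145, 14.7 and 11.8 in VCAP and 7.03 and 6.83 in DUCAP. PC3 was highest, LNCaP and DU145 overlapped, and VCAP and then DUCAP lay below. DUCAP was at -1.97 (SE 0.15, adjusted p = 1.29e-05) against the other lines, and VCAP minus DUCAP was 0.84 (95% interval 0.41 to 1.26, adjusted p = 0.0166).

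HDAC4 was higher in DU145 (11.4 and 7.89 TPM) and PC3 (7.34 and 9.62) than in LNCaP (3.17 and 5.04), VCAP (4.15 and 4.66) and DUCAP (2.48 and 3.04). The step from PC3 to VCAP was 0.80 (95% interval 0.23 to 1.37, adjusted p = 0.0192). HDAC4 exceeded HDAC9 in 9 of 10 samples, the exception being PC3 repeat 1. HDAC1 was highest in PC3 (168 and 177 TPM) and lowest in DU145 (74.9 and 57.4), and HDAC3 was highest in DU145 (67.8 and 75.1). HDAC2 had the smallest span of the class (0.77), at 184 and 169 TPM in LNCaP, 125 and 110 in PC3, 101 and 122 in DUCAP, 93.7 and 114 in VCAP and 90.05 and 121 in DU145. Only LNCaP lay above the rest in HDAC2, and its step to PC3 was 0.58 (95% interval 0.17 to 1.00, adjusted p = 0.0232). Of 18 further genes of deacetylase complexes and sirtuins, 15 passed the F test and 13 spanned 2-fold. The shares of all tested genes were 90.8% and 80.8%. The widest was HDAC11, with PC3 at 1.56 (adjusted p = 5.61e-05) and DUCAP at -1.62 (adjusted p = 5.99e-05) against the other lines.

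BRD2 and BRD3 encode BET readers of acetylated histones, CREBBP and EP300 encode the paired acetyltransferases of enhancers, and CHD1 encodes a remodeler that is deleted in a subset of prostate cancers. CHD1 was lowest in LNCaP, at 10.5 and 10.4 TPM, with 21.98 and 18.3 in PC3, 18.8 and 24.1 in DUCAP, 26.01 and 28.99 in VCAP and 28.3 and 37.98 in DU145. LNCaP lay below all other samples, at -1.18 (SE 0.15, adjusted p = 2.24e-04) against the other lines, and the step to PC3 was 0.88 (95% interval 0.44 to 1.32, adjusted p = 0.0042). BRD2 was at 358 and 339 TPM in VCAP, 223 and 253 in DUCAP, 200 and 215 in LNCaP, 208 and 199 in DU145 and 172 and 146 in PC3. VCAP was highest and PC3 lowest without overlap, and VCAP was at 0.80 (SE 0.10, adjusted p = 2.09e-04) against the other lines.

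BRD3 was at 12.5 and 11.8 TPM in PC3, 26.6 and 27.3 in LNCaP, 32.3 and 23.04 in VCAP, 23.9 and 29.7 in DUCAP and 25.2 and 14.2 in DU145. PC3 was lowest, the other lines overlapped, and the F test (adjusted p = 0.014) did not pass without either PC3 repeat (adjusted p = 0.0821 and 0.0990). CREBBP varied least of the class (span 0.74), with 16.5 and 20.5 TPM in LNCaP, 26.9 and 29.01 in VCAP, 29.6 and 33.5 in DUCAP, 34.4 and 26.8 in DU145 and 28.3 and 27.5 in PC3. LNCaP was below all other samples, and the other lines overlapped in part. EP300 (span 0.92) ran from 12.6 TPM in DU145 to 33.7 TPM in VCAP, and the log2 ratio of CREBBP to EP300 was highest in DU145, at 0.88 ± 0.20, and lowest in VCAP, at -0.14 ± 0.25. Of 21 further genes, 18 passed the F test and 16 spanned 2-fold, against 90.8% and 80.8% of all tested genes. The widest was KAT2A (GCN5), the acetyltransferase of the SAGA complex. KAT2A was at 0.03 TPM in 1 PC3 repeat and listed at 0 in the other, and lay between 22.7 and 58.5 TPM in every other sample.

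Set against the mean of the other 4 lines, the members that passed an adjusted p under 0.05 with a difference of at least 1 on the log2 scale numbered 8 in LNCaP, 6 in DUCAP, 5 in VCAP, 10 in DU145 and 9 in PC3. The 5 comparisons share samples and are not independent. Such a call need not set a line apart from each other line. For BMI1 the VCAP repeats overlapped LNCaP and DUCAP, and for CBX2 and HDAC9 the LNCaP repeats overlapped DUCAP. In LNCaP, 3 members were higher (KDM6A, KDM6B and CBX2), against 18.2% of all genes, and 5 were lower (SMARCA1, HDAC9, CHD1, KMT2A and KMT2D), against 9.9%. The CBX2 difference in LNCaP fell to 0.90 under median-ratio scaling and 0.96 under quantile normalization. In DUCAP, 2 were higher (SMARCA2 and CBX2), against 4.62%, and 4 lower (HDAC6, SMARCA1, HDAC9 and DNMT3A), against 25.3%. The SMARCA1 difference in DUCAP, -1.46, shrank to -0.97 under median-ratio scaling and -0.84 under quantile normalization, where that of HDAC9 shrank from -1.29 to -0.93, and DNMT3A lost its call under both. In VCAP, 4 were higher (KMT2D, ARID1A, KMT2C and KMT2A), against 7.77%, and BMI1 was lower, against 19.2%. The BMI1 difference in VCAP, -1.16, was -0.91 with mitochondrial genes left out of the scaling, -0.80 under median-ratio scaling and -0.75 under quantile normalization.

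In DU145, 4 members were higher (SMARCA1, BMI1, NSD2 and EZH1), against 21.2%, and 6 lower (SMARCA4, CBX2, KDM6A, SMARCA2, KMT2C and PBRM1), against 7.94%. The EZH1 difference in DU145 was 0.93 under median-ratio scaling and 0.85 under quantile normalization, that of NSD2 was 0.990 and 0.995, and that of PBRM1 was -0.88 without DU145 repeat 1. In PC3, 7 were higher (SMARCA1, HDAC9, KDM5B, HDAC6, KDM3A, SMARCA4 and BMI1), against 23.8%, and 2 lower (ARID2 and KMT2C), against 9.13%. Under quantile normalization 4 of these 7 fell short of the size, with BMI1 at 0.87, SMARCA4 at 0.95, KDM3A at 0.96 and HDAC6 at 0.96. In VCAP and DUCAP the higher share was near the background in the TPM as deposited. In VCAP it was above the background under the 3 other scalings below, and in DUCAP under median-ratio scaling and quantile normalization. In LNCaP, DU145 and PC3 the members called higher were a smaller share of 48 than the share of all genes called, and in DUCAP and VCAP the same held for those called lower.

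These counts moved with the scaling. Under median-ratio scaling the members called higher and lower numbered 15 and 0 in VCAP, 13 and 2 in DUCAP, 2 and 9 in LNCaP, 7 and 8 in PC3, and 2 and 10 in DU145. Of all genes, 11.8% and 12.1%, 10.2% and 13.3%, 12.5% and 12.1%, 16.4% and 13.1%, and 15.6% and 11.2% were so called. Under quantile normalization the members numbered 16 and 0, 14 and 1, 2 and 9, 3 and 10, and 2 and 10 in the same order of lines. Of all genes, the shares were 12.5% and 11.8%, 11% and 11.1%, 13.2% and 11.6%, 15.1% and 14.5%, and 14.2% and 13.1%. With mitochondrial genes left out of the scaling the members numbered 12 and 0, 3 and 4, 3 and 6, 7 and 4, and 4 and 7. For all genes the shares were 11.3% and 15.5%, 6.48% and 22%, 17.1% and 11.7%, 20.1% and 12.7%, and 20.1% and 10.1%. Members added in VCAP under all 3 of these scalings were SUZ12, CBX2, SMARCA2, KMT2E, SETD2, DNMT3A, TET3 and BRD2. No member called in the TPM as deposited changed sign under these scalings.

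The median of all genes moved with the scaling as well. In VCAP the median difference was 0.24 for the members and -0.36 for all tested genes, and in DUCAP it was -0.13 and -0.54. It was -0.19 and 0.18 in LNCaP, -0.24 and 0.23 in DU145, and 0.00 and 0.26 in PC3. Under median-ratio scaling the members' median was 0.58 in VCAP and 0.46 in DUCAP, with that of all genes at -0.09 and -0.11. In DUCAP the sign of the members' median thus depended on the scaling. Under all 4 scalings the members' median lay above that of all genes in DUCAP and VCAP and below it in LNCaP, DU145 and PC3. This order depended on the filter in DUCAP and PC3. Without a filter on low values the medians were -0.127 for the members and -0.117 for all genes in DUCAP. In PC3 they were then 0.002 and -0.002. DUCAP and VCAP were also the lines with the highest mitochondrial share (32.1% to 36.0%, against 12.7% to 22.5% in the others). With those genes left out of the scaling, the median difference was 0.50 for the members and -0.19 for all genes in VCAP, and 0.09 and -0.43 in DUCAP.

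**Figure D4:**
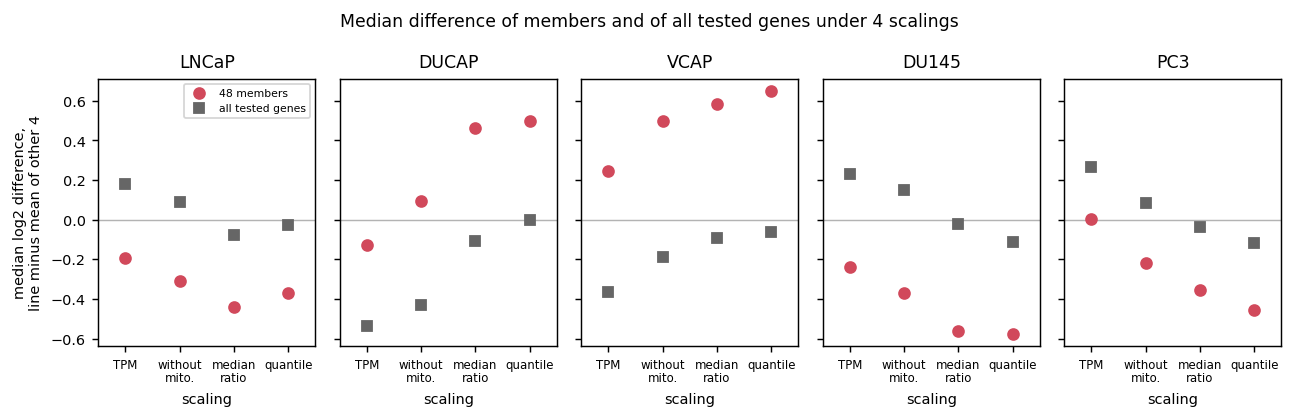
For each line, the vertical axis gives the median difference from the mean of the other 4 lines on the log2 scale, for the 48 members (circles) and all tested genes (squares), under 4 scalings on the horizontal axis. The circles lie above the squares in DUCAP and VCAP and below them in LNCaP, DU145 and PC3.

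DUCAP and VCAP, derived from the same patient, differed 2-fold in few of these genes, as they did in few of all genes. Of the 48 members, 2 differed between them at an adjusted p under 0.05 with at least 2-fold, against 7.69% of all genes. DNMT3A was lower in DUCAP, -1.55 (95% interval -2.08 to -1.02, adjusted p = 0.00294), as was SMARCA1, -1.01 (95% interval -1.48 to -0.55, adjusted p = 0.0112). Another 8 members passed the adjusted p with a smaller difference. For this looser rule no share of all genes is given, so the count and its direction have no background. NSD2, PBRM1, KMT2E, NSD1, SETD2, HDAC6 and BRD2 were lower in DUCAP, with NSD2 the furthest at -0.94 (95% interval -1.52 to -0.35, adjusted p = 0.0375). SMARCA2 was higher in DUCAP, at 0.55 (95% interval 0.21 to 0.89, adjusted p = 0.0378). At an adjusted p under 0.05 with at least 2-fold, VCAP and PC3 differed in 18 of 48 members, against 45.9% of all genes.

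The repeats lay furthest apart in DU145. The median gap between repeats over the 48 members was 0.13 in LNCaP, 0.22 in DUCAP, 0.20 in VCAP, 0.32 in DU145 and 0.15 in PC3 on the log2 scale, near that of all tested genes in each line (0.12 to 0.32). In DU145, repeat 2 exceeded repeat 1 by 0.98 for EZH2, 0.90 for DNMT1, 0.74 for CBX2, 0.72 for NSD2 and 0.65 for EED. Other members went the other way, with repeat 2 minus repeat 1 at -0.788 for BRD3, -0.637 for KDM5B and -0.635 for EP300. On this scale KDM6B was the only member with a gap of at least 2-fold in DU145 (-1.01), against 9.48% of all genes; in TPM without the pseudocount the DU145 repeats of CBX2 and EZH2 also lay over 2-fold apart. The sum over 20 proliferation genes was 1332 and 3272 TPM in the DU145 repeats, against 1033 to 1916 TPM in the other samples, so the DU145 repeat with the higher EZH2, DNMT1, NSD2 and UHRF1 also had the higher proliferation sum. The part of proliferation in these levels was not tested.

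**Figure D5:**
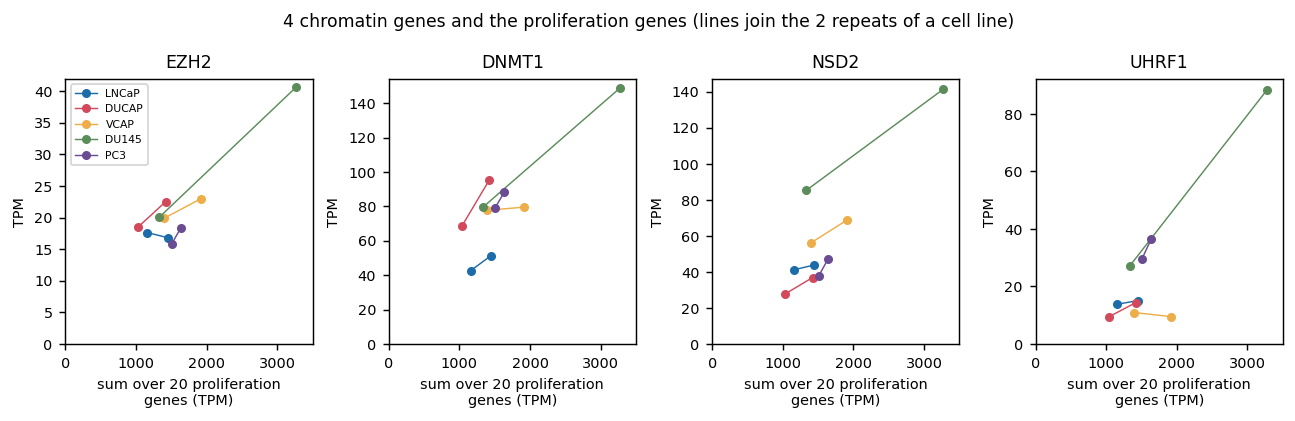
Level in TPM of EZH2, DNMT1, NSD2 and UHRF1 (vertical axes) against the summed TPM of 20 proliferation genes (horizontal axis), with a line joining the repeats of each cell line. DU145 repeat 2 has the highest value on both axes in all 4 panels.

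Over all 144 further chromatin genes, 143 could be tested, 129 passed the F test and 103 spanned 2-fold (72.0%), with a median span of 1.45. Over all tested genes 90.8% passed the F test, 80.8% spanned 2-fold and the median span was 1.69. Against the mean of the other lines, 27 were higher and 10 lower in PC3, 19 and 5 in DU145, 14 and 12 in LNCaP, 11 and 12 in VCAP, and 6 and 31 in DUCAP. The shares of all genes called were those given above for the members; in PC3 and DUCAP, where the counts were largest, they were 23.8% higher and 9.13% lower, and 4.62% higher and 25.3% lower. PHF19, DPF3 and KAT2A spanned more than 4 on the log2 scale, which among the 48 members SMARCA1 alone did.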

How the data were processed

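Total RNA of 5 untreated prostate cancer lines, 2 biological repeats each, was sequenced as strand-specific, polyA-enriched libraries. Per the labels and the study's methods, the authors trimmed reads with Trim Galore 0.6.5 after FastQC 0.11.9, aligned them with STAR 2.7.2b to GRCh38 and quantified genes with RSEM 1.3.3. They deposited TPM per gene symbol in 1 table, without pooling repeats; how rows sharing a symbol were merged is not given in the sources used here. TPM keep no depth, so no counting interval was computed. Repeat numbers follow the sample titles, where culture numbers of DU145 and PC3 differ from them; all 10 columns were mapped and no 2 were identical.

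The test scale was log2(TPM + 1), on which the 17520 genes that reached 1 TPM in 2 or more samples entered a limma fit (limma 3.58.1, R 4.3.3). The model held a mean for each line, the variance prior followed a mean trend, and p-values were adjusted by Benjamini-Hochberg over all genes tested. An F test over the lines, 5 contrasts of a line with the mean of the other 4 and 10 pairwise contrasts were taken from that fit. The step was checked on simulated data. The level of 1 marker gene is not reported here. The members and lists were chosen with earlier results of these data known. Given in every sample were, per class, the 3 members with the widest span among those passing the F test, the member with the smallest span, any member under 1 TPM in 1 line and at or above it in another, and related members; the widest of each list of further genes was named. Tried as alternatives were a pseudocount of 0.1, other filters on low values, 3 other scalings, limma with no trend or a robust prior, a block for repeat number, and leaving out each sample. Coordinates and promoter windows came from RefSeq for GRCh38.p14, the files' build, with all 48 symbols matched. Python 3.11.15, pandas 2.3.3, numpy 2.4.6 and matplotlib 3.10.9 were used.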

Additional observations from a re-analysis of the deposited data

How the results depend on the processing

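The number of members called against the other 4 lines moved by over 1.5 times under other scalings in 3 lines. It was 6 in DUCAP and became 15 under median-ratio scaling and 15 under quantile normalization; in VCAP it was 5 and became 12 with mitochondrial genes left out of the scaling, 15 under median-ratio scaling and 16 under quantile normalization; in PC3 it was 9 and became 15 under median-ratio scaling. The other counts stayed within 1.5 times under every alternative. SMARCB1 in VCAP changed sign under quantile normalization, to 0.001 from -0.441 (limma adjusted p = 0.993). For each member in the line of its largest difference, 847 values over the alternatives kept their direction and side of the threshold, 49 passed it anew and 14 no longer passed it; calls lost in other lines are given with the results. With each sample left out in turn, the members passing the F test ranged from 42 to 48, those spanning 2-fold from 30 to 37, and those called from 7 to 9 in LNCaP, 6 to 9 in DUCAP, 4 to 6 in VCAP, 9 to 15 in DU145 and 8 to 10 in PC3. Calls lost in at least 1 of these fits were KMT2D in LNCaP, KMT2A and BMI1 in VCAP, PBRM1, KMT2C and NSD2 in DU145, and KMT2C in PC3. The causes of these changes were not tested.

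With the repeat number as a replicate block, 47 members passed the F test, 33 spanned 2-fold, and 8, 6, 5, 10 and 9 were called in LNCaP, DUCAP, VCAP, DU145 and PC3, as without it. Deviations of samples sharing a repeat number had a mean correlation of 0.0092 over the 10 pairs of lines (-0.191 to 0.249). The repeat numbers thus showed no pairing on average. Pairing of single lines, or by the culture numbers in the titles, was not tested. For low genes the size of a difference depended on the pseudocount: TET1 in DU145 was at -0.69 and became -1.63 with 0.1. TPM keep no depth, so counting error at such levels is unknown.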
